A study of Mus musculus with 4 samples.

Results

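Complement genes of connective tissue cells and macrophages were followed through 4 single-cell libraries of mouse salivary gland. The members were chosen by symbol, as the 8 rows C1qa, C1qb, C1qc, C1ra, C1s1, C4b, C3 and Serping1 of the 31053 genes in the count matrices. Cells dissociated from submandibular and sublingual glands of female C57BL6/J mice had been depleted of epithelium (EpCAM) and red cells (Ter119) with antibody-coated beads and then of dead cells, before droplet sequencing on the 10x Genomics platform. In the 2 deligated libraries, from mice of 14 weeks, a metal clip had closed the main ducts for 14 days and had then been taken off for 5 days. The 2 homeostatic libraries came from mice of 12 weeks that had no surgery. Age therefore differed between the groups together with the operation, the labels give no mutation or transgene, and nothing in the labels ties a library to one animal, so p-values measure the spread between these libraries.

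Complement is a blood and tissue defence system in which proteases activate one another on a target surface. In the classical pathway the recognition molecule C1q, built from the products of C1qa, C1qb and C1qc, carries the proteases C1r and C1s, which cleave C4 and C2. The resulting convertase cleaves C3, the step on which all activation routes converge, and the C1 inhibitor encoded by Serping1 blocks C1r and C1s. Much of the circulating supply comes from liver, while C1q is made largely by macrophages, and fibroblasts of many tissues express early components and regulators.

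On GRCm38 with the GENCODE M21 annotation, the 3 C1q genes lie side by side on the minus strand of chromosome 4, within 18.68 kb: C1qb at 136880129 to 136886187, C1qc at 136889804 to 136893065 and C1qa at 136895917 to 136898803. C1ra (124512405 to 124523443, plus strand) and C1s1 (124530345 to 124542359, minus strand) are neighbours on chromosome 6, within 29.96 kb. C4b (34728380 to 34743882) and C3 (57203970 to 57228136) are both on the minus strand of chromosome 17, and Serping1 is on chromosome 2 (84765387 to 84775444, minus strand). C1s1 overlaps Gm16567 on the other strand.

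RefSeq promoter entries for the same build (GRCm38.p6) were matched by symbol for 5 of the 8 members, C1qb, C1qc, C1ra, C1s1 and C3. The 250 bases before the start are shown for 3 of them, because these 3 genes stand for the macrophage, the fibroblast and the shared fibroblast and mural patterns described below. Capitals mark a match to one of the motifs searched.
C1qb, chr4:136886201-136886450, minus strand: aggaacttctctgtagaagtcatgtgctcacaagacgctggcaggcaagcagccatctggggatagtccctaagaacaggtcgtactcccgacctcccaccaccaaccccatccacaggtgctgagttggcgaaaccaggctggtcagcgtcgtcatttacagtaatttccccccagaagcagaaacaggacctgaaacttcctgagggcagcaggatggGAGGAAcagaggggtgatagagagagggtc
C3, chr17:57228137-57228386, minus strand: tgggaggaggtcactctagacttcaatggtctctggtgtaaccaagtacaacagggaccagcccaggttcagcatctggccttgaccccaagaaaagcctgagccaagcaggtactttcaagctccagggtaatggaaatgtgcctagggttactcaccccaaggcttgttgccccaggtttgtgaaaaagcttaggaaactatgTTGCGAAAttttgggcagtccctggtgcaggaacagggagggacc
C1s1, first of its 2 listed starts, chr6:124542360-124542609, minus strand: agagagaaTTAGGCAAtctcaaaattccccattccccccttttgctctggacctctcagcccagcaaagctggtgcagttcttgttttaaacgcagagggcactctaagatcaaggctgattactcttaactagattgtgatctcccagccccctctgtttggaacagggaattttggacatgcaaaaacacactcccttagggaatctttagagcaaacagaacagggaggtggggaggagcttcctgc
The motifs were searched on both strands: GAGGAA (the core of PU.1 sites), TTGCNNAA (C/EBP) and TTCNNNGAA (STAT sites). GAGGAA stood 30 bases before the C1qb start, a motif held by 23.25% of the 32851 promoter windows of this length. TTGCNNAA stood 45 bases before the C3 start and 242 bases before the C1s1 start, and 9.56% of all windows held it. The second C1s1 start and C1ra, not shown, held none of the motifs, and C1qc held GAGGAA 193 bases before its start. None of these windows held TTCNNNGAA, which 7.02% of all windows held. A match describes letters only.

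The libraries held 4725 to 13266 barcodes and 35662241 to 53898793 UMIs (unique molecular identifiers, each counting 1 captured RNA molecule), and 33695 cells were retained. Pairs of libraries shared 14 to 54 barcodes. Cells were grouped into 31 clusters without using any complement gene, and clusters were named from marker genes as "X-like". Although beads against EpCAM and Ter119 had been used, 32 to 1276 epithelial-like and 23 to 171 erythroid-like cells per library remained. Endothelial-like, fibroblast-like, NK/innate lymphoid-like and T cell-like cells of the deligated and the homeostatic libraries lay mostly in different clusters (fibroblasts in cluster 3 against cluster 29). The file headers name Cell Ranger 6.0.1 for the deligated and 7.0.0 for the homeostatic libraries, and the effect of the software cannot be told apart from that of the operation. Across the 11404 genes tested in fibroblast-like cells, which are not independent replicates, the log2 fold change between groups had a Spearman correlation of -0.53 with intron length. The members' introns sum to 1.33 to 19.02 kb, against a median of 9.58 kb over all annotated genes in the files.

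The 8 members divided between few cell classes. Of each library's C1qa, C1qb and C1qc UMIs, 84.5% to 95.6% were counted in macrophage-like cells, which were 1.33% to 10.2% of the cells. Fibroblast-like cells, 2.26% to 9.51% of the cells, held 96.6% to 98.7% of C3 UMIs, 84.5% to 91.4% of C1ra, 81.7% to 91.0% of C1s1 and 86.3% to 88.1% of Serping1. Mural-like cells (pericytes and vascular smooth muscle) held most of the remainder of C1s1, 7.88% to 17.0%, and of Serping1, 9.12% to 11.9%. C4b was split: Schwann-like cells, 0.0642% to 0.767% of the cells, held 37.9% to 84.4% of its UMIs, fibroblast-like cells 9.27% to 58.2%, and mural-like cells 25.4% in homeostatic replicate 2 and at most 1.79% elsewhere.

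**Figure D1:**
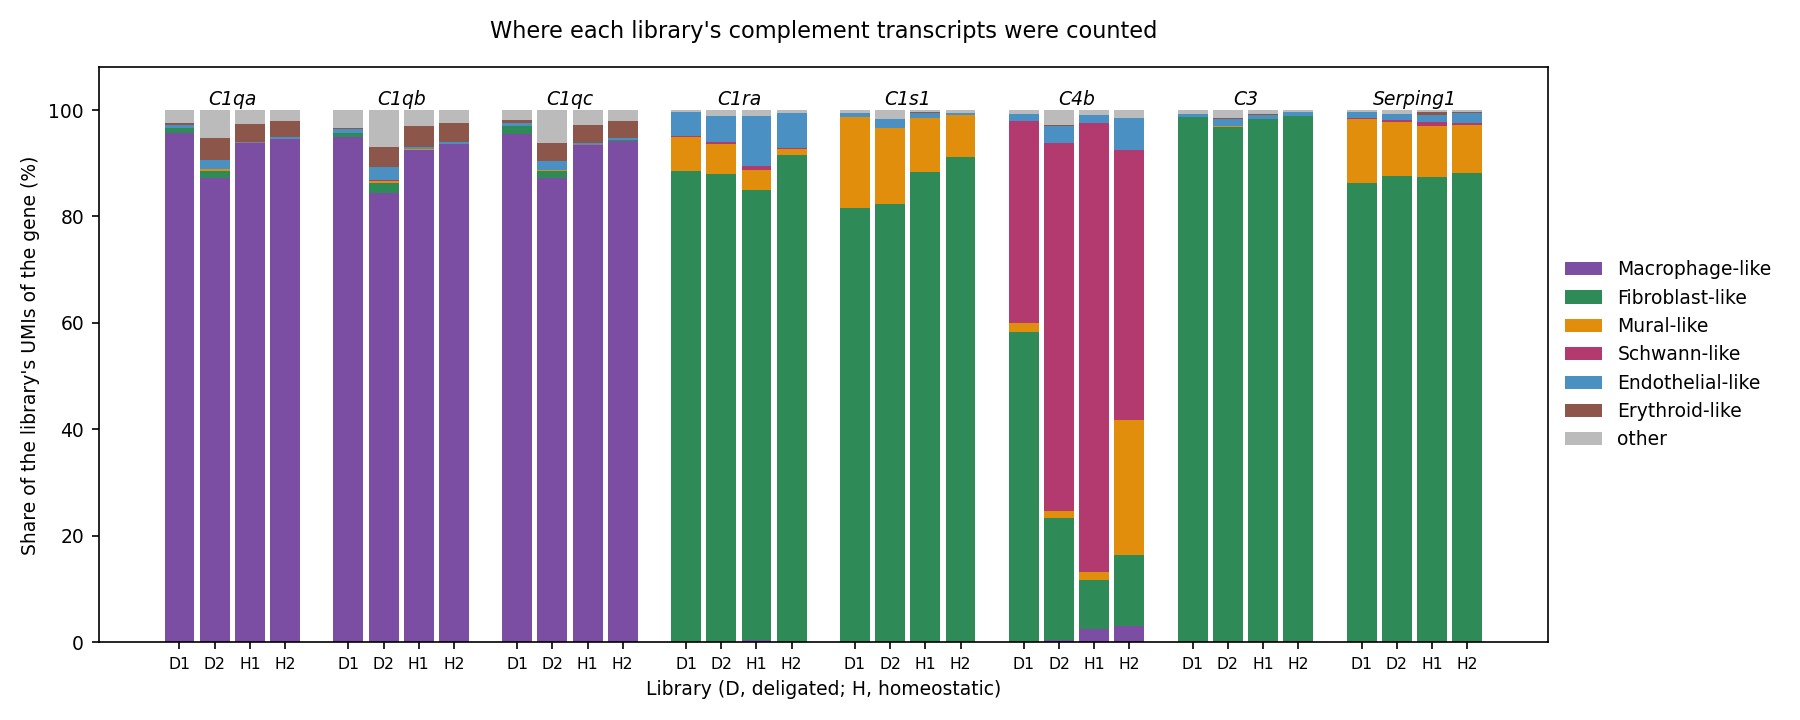
Stacked bars give the percent of each library's UMIs of a gene that were counted in each cell class, for 2 deligated (D1, D2) and 2 homeostatic (H1, H2) libraries; "other" holds the remaining named classes and the unnamed clusters. C1q bars are mostly macrophage-like (84.5% to 95.6%), C3 bars almost wholly fibroblast-like (96.6% to 98.7%), and C4b is the member whose Schwann-like share is large in every library.

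**Figure D2:**
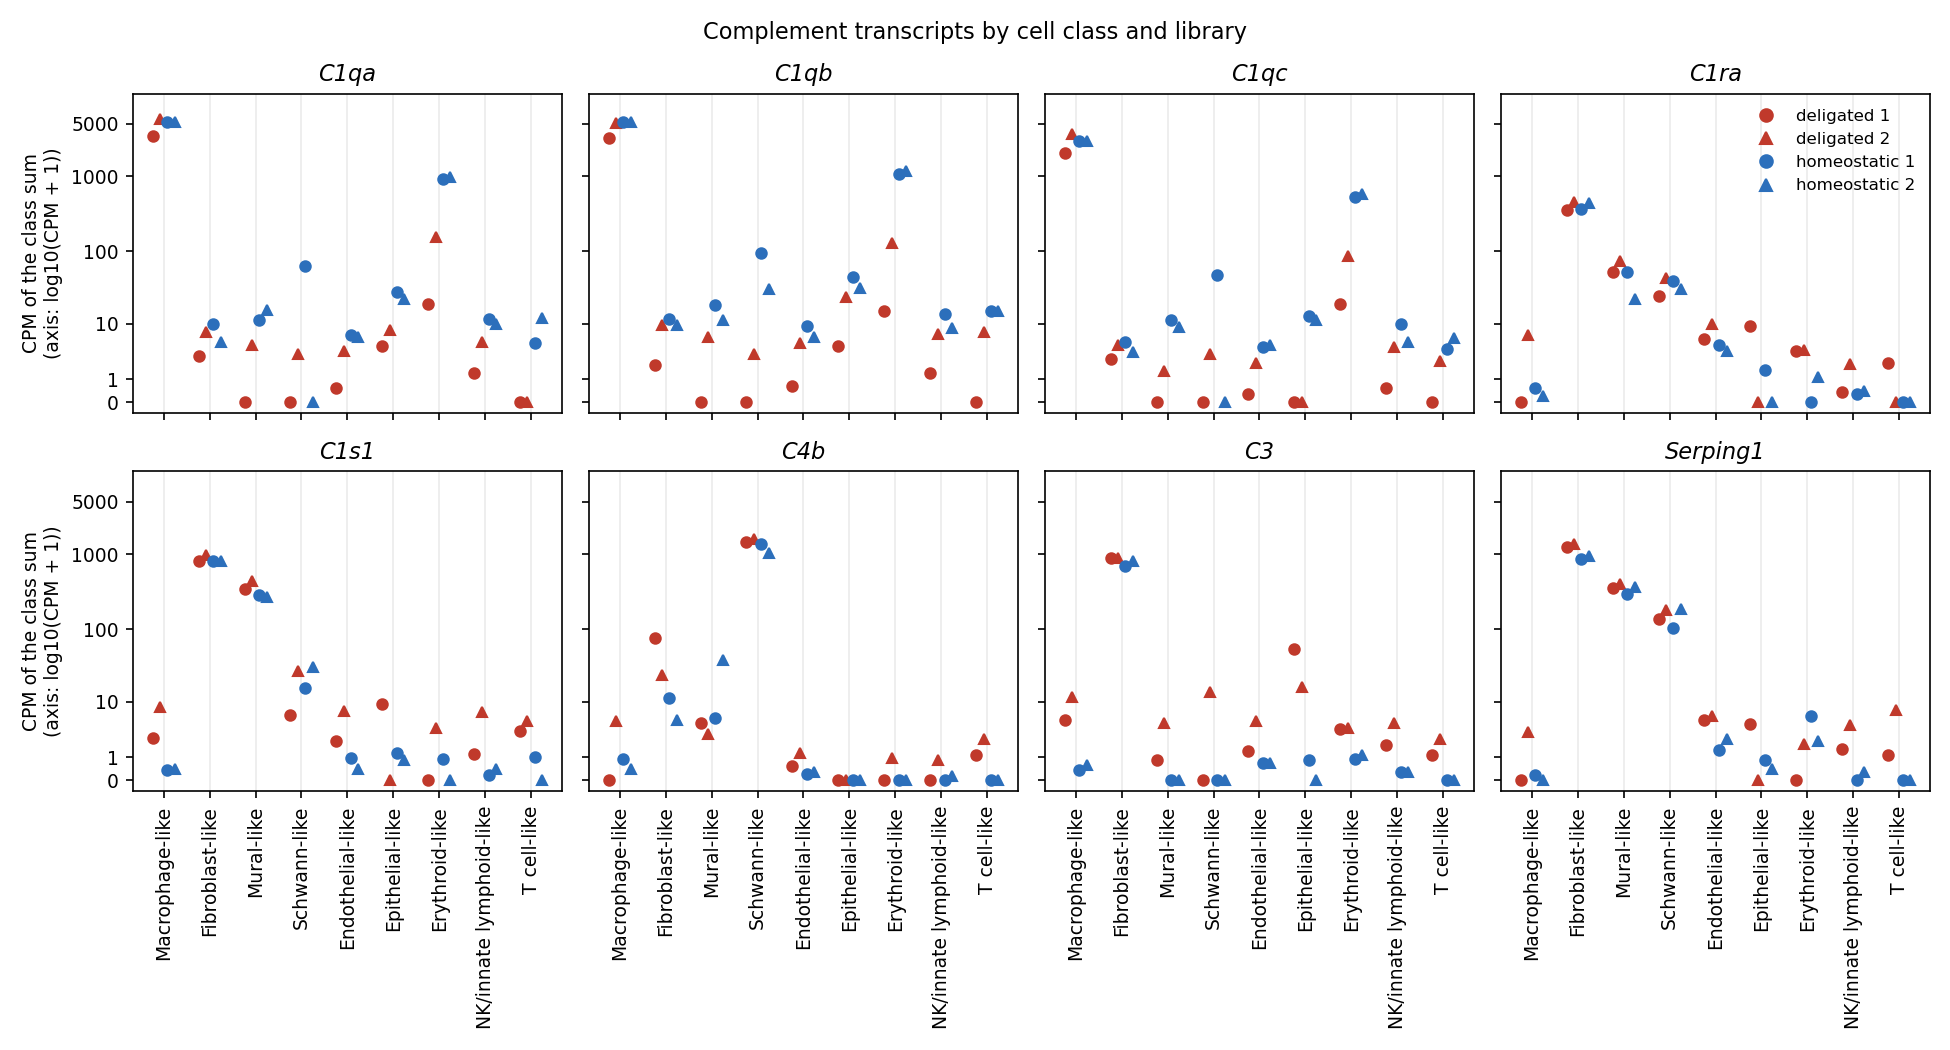
Each point is 1 library's CPM of a gene in the summed UMIs of a cell class, on a log10(CPM + 1) axis; red marks deligated, blue homeostatic, circles replicate 1 and triangles replicate 2. Macrophage-like points of C1qa stand between 3420 and 5702 CPM, and fibroblast-like points of Serping1 between 853 and 1353 CPM.

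C1qa, C1qb and C1qc encode the 3 chains of C1q. Levels are given as CPM, UMIs of a gene scaled to 1000000 UMIs in the sum of a class. In macrophage-like cells C1qa stood at 3420 and 5702 CPM in the deligated and 5216 and 5260 CPM in the homeostatic libraries. C1qb stood at 3190 and 5098 against 5291 and 5285 CPM. C1qc stood at 2008 and 3672 against 2903 and 2976 CPM. Deligated replicate 1 was lowest for all 3 genes, the groups overlapped for C1qa and C1qc but not for C1qb, and the 2 homeostatic libraries were close together. The macrophage-like cells numbered 58 and 109 in the deligated libraries and 1079 and 1071 in the homeostatic ones.

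None of the 3 C1q genes passed the test between groups in macrophage-like cells, in which 14.9% of the 10334 genes tested were called (edgeR's quasi-likelihood test, adjusted p under 0.05). The log2 fold changes, deligated over homeostatic, were -0.29 for C1qa (SE 0.22, adjusted p = 0.418), -0.44 for C1qb (SE 0.20, adjusted p = 0.193) and -0.14 for C1qc (SE 0.24, adjusted p = 0.768). The median of the 3 was -0.29, against 0.01 over all genes tested. By unadjusted p under 0.05, and by DESeq2, no C1q gene was called either. Without deligated replicate 2 the log2 fold changes were -0.72 for C1qa, -0.83 for C1qb and -0.65 for C1qc. When cells scored as doublets were kept, the values were 0.18, 0.03 and 0.30.

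Other RNA stood in the same cells. Erythroid markers, which include hemoglobin genes, made up 4.48% and 2.00% of the macrophage-like UMIs of the deligated and 12.0% and 12.2% of those of the homeostatic libraries. With them left out of the totals, C1qa was 3581 and 5818 against 5926 and 5988 CPM, C1qb 3340 and 5202 against 6012 and 6017, and C1qc 2102 and 3747 against 3299 and 3387. Neutrophil markers, which include S100a8 and S100a9, summed to 3472 CPM in deligated replicate 1 and to 22.2 to 77.5 CPM in the other 3 libraries. Per UMI of the 10 macrophage markers, the 3 C1q genes together counted 1.55 and 1.75 (deligated) against 2.22 and 2.21 (homeostatic). The part of these other transcripts in the C1q values was not tested.

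The macrophage-like class was made of 2 clusters. In cluster 20, with a median of 6374 UMIs per cell, C1qa was 5937 and 6396 CPM in the deligated and 5268 and 5357 CPM in the homeostatic libraries, from 18 and 55 against 543 and 528 cells. In cluster 6, with a median of 1210 UMIs per cell, C1qa was 1229 and 3314 against 4936 and 4794 CPM. The deligated values lay above the homeostatic ones in the first cluster and below them in the second.

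Per cell, C1q was nearly universal in the homeostatic macrophage-like cells. After thinning each cell to 1000 UMIs, which left out 9, 20, 200 and 210 shallower cells (deligated 1 and 2, homeostatic 1 and 2), C1qa was found in 96.2% (95% exact interval 94.8 to 97.4) and 95.6% (94.0 to 96.9) of them. It was found in 65.3% (50.4 to 78.3) and 87.6% (79.0 to 93.7) of the deligated macrophage-like cells. Without thinning the shares were 95.7%, 94.7%, 67.2% and 87.2%, in the same order. In NK/innate lymphoid-like cells, taken as a class that should lack C1qa, the thinned share was 0.112% to 1.59%, with median depths of 5507 to 6252 UMIs against 2955 to 6322 in macrophage-like cells. None of the 3 C1q genes had a UMI, unthinned, in 31.0% and 12.8% of the deligated and in 1.67% and 2.05% of the homeostatic macrophage-like cells. Intervals and zero limits given here cover counting error only.

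Among the named classes with at least 20 cells in every library, erythroid-like cells had the second highest mean C1q levels, after macrophage-like cells. C1qa stood there at 19.0 and 156 CPM in the deligated and 932 and 965 CPM in the homeostatic libraries. B cell-like cells, outside this ranking, had 220 CPM of C1qa in deligated replicate 2, from 18 cells. An unnamed cluster of dividing cells, described under Other observations, was above the erythroid-like cells in some libraries and below them in homeostatic replicate 2. In erythroid-like cells all 3 C1q genes were called lower, 3 of 3 tested, where 12.2% of all genes were called and 8.63% were called lower. The log2 fold changes were -3.76 for C1qa (SE 0.40, adjusted p = 3.36e-05), -4.26 for C1qb and -3.73 for C1qc. Without deligated replicate 2 they were -6.38, -6.95 and -5.61, in the same order, and the calls held. Macrophage markers moved with them, at 102 and 174 CPM against 837 and 762 CPM in sum, with 5 of the 10 at 0 in deligated replicate 1, 1 in deligated replicate 2 and none in the homeostatic libraries. Their part in the result was not tested. In NK/innate lymphoid-like cells C1qa, at 1.40 and 5.20 against 11.8 and 9.82 CPM, was also called lower (log2 fold change -1.44, adjusted p = 0.0162). It was -2.79 without deligated replicate 2, and the call was lost without homeostatic replicate 1 or 2 (adjusted p = 0.112 and 0.0555). Macrophage markers summed there to 8.24 and 17.9 against 23.4 and 19.8 CPM, with 4, 0, 0 and 1 of the 10 at 0, and their part was not tested.

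C1ra and C1s1 encode the proteases C1r and C1s. In fibroblast-like cells C1s1 stood at 816 and 984 CPM in the deligated and 801 and 808 CPM in the homeostatic libraries. C1ra stood at 354 and 456 against 365 and 440 CPM. For C1ra the groups overlapped, and for C1s1 the lowest deligated value was just above the highest homeostatic one. Neither was called, with log2 fold changes of 0.22 for C1s1 (SE 0.12, adjusted p = 0.211) and 0.07 for C1ra (SE 0.15, adjusted p = 0.773). Without deligated replicate 1 the C1s1 value was 0.32, and with the intron-length trend removed C1ra was -0.12.

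Mural-like cells came next in mean level for both proteases, though their C1ra range overlapped that of Schwann-like cells (25.0 to 44.1 CPM in 3 libraries). In mural-like cells C1s1 stood at 349 and 444 against 289 and 268 CPM, and C1ra at 51.7 and 74.0 against 52.5 and 22.7 CPM. The C1s1 groups did not overlap and the C1ra groups did. No member was called in mural-like cells, 0 of 5 tested, where 6.49% of all genes were called (C1s1 log2 fold change 0.48, adjusted p = 0.175). With an unadjusted p under 0.05, C1s1, C1qa and C1qb would have passed, and DESeq2 called none. With the replicate block 2 were called. The 2 mural clusters differed in level: C1s1 was 410 to 622 CPM in cluster 14, led by Abcc9, Kcnj8 and Rgs5 (genes of pericytes), and 215 to 346 CPM in cluster 4, led by Myh11, Tagln and Acta2 (contractile genes of smooth muscle). C1ra was 70.3 to 107 CPM in cluster 14 and 10.4 to 57.9 CPM in cluster 4. The ranges over the 4 libraries did not overlap for either gene, and no test was made between clusters.

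Partly identical copies limit both genes. Of all 90-base windows of its transcripts, C1ra shares 36.5% with C1rb and C1s1 shares 9.07% with C1s2, so reads could be split or dropped between copies. Over the last 500 bases of the longest transcript the shares were 11.2% and 2.68%. C1rb reached at most 0.223 CPM and C1s2 at most 1.09 CPM as a mean in any class tested.

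C4b encodes complement C4, the first substrate of C1s. Its highest level was in Schwann-like cells, the glia of peripheral nerve. Both deligated libraries (1454 and 1595 CPM) and homeostatic replicate 1 (1376 CPM) were high. Homeostatic replicate 2 had 1052 CPM from 7 cells. All of these were above fibroblast-like cells, at 5.34 to 75.3 CPM, and mural-like cells, at 3.12 to 38.6 CPM. Fibroblast-like cells were second by the mean of the 4 libraries, with ranges that overlapped, and in homeostatic replicate 2 the mural-like value was the higher one. No test between groups was made in Schwann-like cells, with 7 to 60 cells per library. After thinning, 65.4% to 73.3% of Schwann-like cells had a C4b UMI (85.2% to 100% unthinned), while NK/innate lymphoid-like cells had 0% to 0.142%.

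In fibroblast-like cells C4b stood at 75.3 and 23.5 CPM in the deligated and 11.2 and 5.34 CPM in the homeostatic libraries. The groups did not overlap, and deligated replicate 1 was far above the rest. C4b rose, with a log2 fold change of 2.62 (SE 0.64, adjusted p = 0.0136). The signal was uneven across cells: 66 of 352, 64 of 744, 12 of 240 and 6 of 250 cells had a C4b UMI, and the 5 richest cells of a library held 39.1% to 88.9% of its C4b UMIs. Without those 5 cells the levels were 34.5 and 14.3 against 4.14 and 0.593 CPM.

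The C4b call was lost when cells scored as doublets were kept (log2 fold change 1.20, adjusted p = 0.172) and without either homeostatic library (3.25, adjusted p = 0.121, and 2.20, adjusted p = 0.196). Without deligated replicate 1 the value was 1.53. C4b shares 17.8% of its 90-base windows with C4a, which was not analysed here.

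C3 is the central component that all routes cleave. In fibroblast-like cells it stood at 898 and 898 CPM in the deligated and 707 and 818 CPM in the homeostatic libraries. The groups did not overlap, yet C3 was not called (log2 fold change 0.30, SE 0.13, adjusted p = 0.110). The value was 0.27 without deligated replicate 1 and 0.36 without replicate 2, and the sign turned to -0.09 when cells scored as doublets were kept. The fibroblast-like mean over the 4 libraries, 830 ± 90.5 CPM (SD, n = 4), was the highest of all classes. Epithelial-like cells were next, where C3 stood at 54.7 and 16.2 CPM in the deligated libraries, from 32 and 65 cells, and at 0.850 and 0 CPM in the homeostatic ones. No member was called there, 0 of 4 tested, where 0.869% of all genes were called (C3 adjusted p = 0.0527). All 4 had an unadjusted p under 0.05, and DESeq2 called 1. With so few deligated cells, the absence of calls there says little about these genes.

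Serping1 encodes the C1 inhibitor. In fibroblast-like cells it stood at 1253 and 1353 CPM in the deligated and 853 and 934 CPM in the homeostatic libraries. The groups did not overlap, at 1303 ± 70.5 against 894 ± 57.3 CPM (SD, n = 2 each), a ratio of 1.46. Serping1 rose, with a log2 fold change of 0.61 (SE 0.12, adjusted p = 0.00396). Taking out the trend with intron length left 0.42 (adjusted p = 0.0374), and without either homeostatic library the call was lost (0.53, adjusted p = 0.150, and 0.68, adjusted p = 0.0795). After thinning to 1000 UMIs, 67.6% and 68.3% of deligated and 52.1% and 53.6% of homeostatic fibroblast-like cells had a Serping1 UMI. Thinning left out 18 cells of deligated replicate 2. Unthinned shares were 96.7% to 100% and NK/innate lymphoid-like cells had 0% to 0.331% after thinning. Fibroblast-like cells had median depths of 13248 and 9220 (deligated) against 6867 and 6645 UMIs (homeostatic).

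In mural-like cells Serping1 stood at 355 and 404 against 294 and 370 CPM, so the groups overlapped (log2 fold change 0.16, SE 0.20, adjusted p = 0.747), and the sign turned (-0.0077) once the trend with intron length was taken out. Schwann-like cells had 103 to 186 CPM. Among endothelial-like clusters, cluster 10, led by Selp, Vwf, Sele and Ackr1 (genes of venules), had 17.6 and 20.0 against 15.4 and 32.0 CPM. The largest endothelial-like clusters, 5 in the deligated and 17 in the homeostatic libraries, had 1.79 and 3.79 against 0.478 and 0.388 CPM.

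In all, 2 of the 8 members were called in fibroblast-like cells, both higher, where 25.5% of all 11404 genes were called and 8.3% were called higher. The members' median log2 fold change was 0.15, against 0.01 over all genes tested. The count of 2 of 8 is close to the share of all genes called in either direction. With cells scored as doublets kept the count was 4, and without either homeostatic library it was 0, where the calls over all genes also dropped from 2906 to 1042 and 1090.

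**Figure D3:**
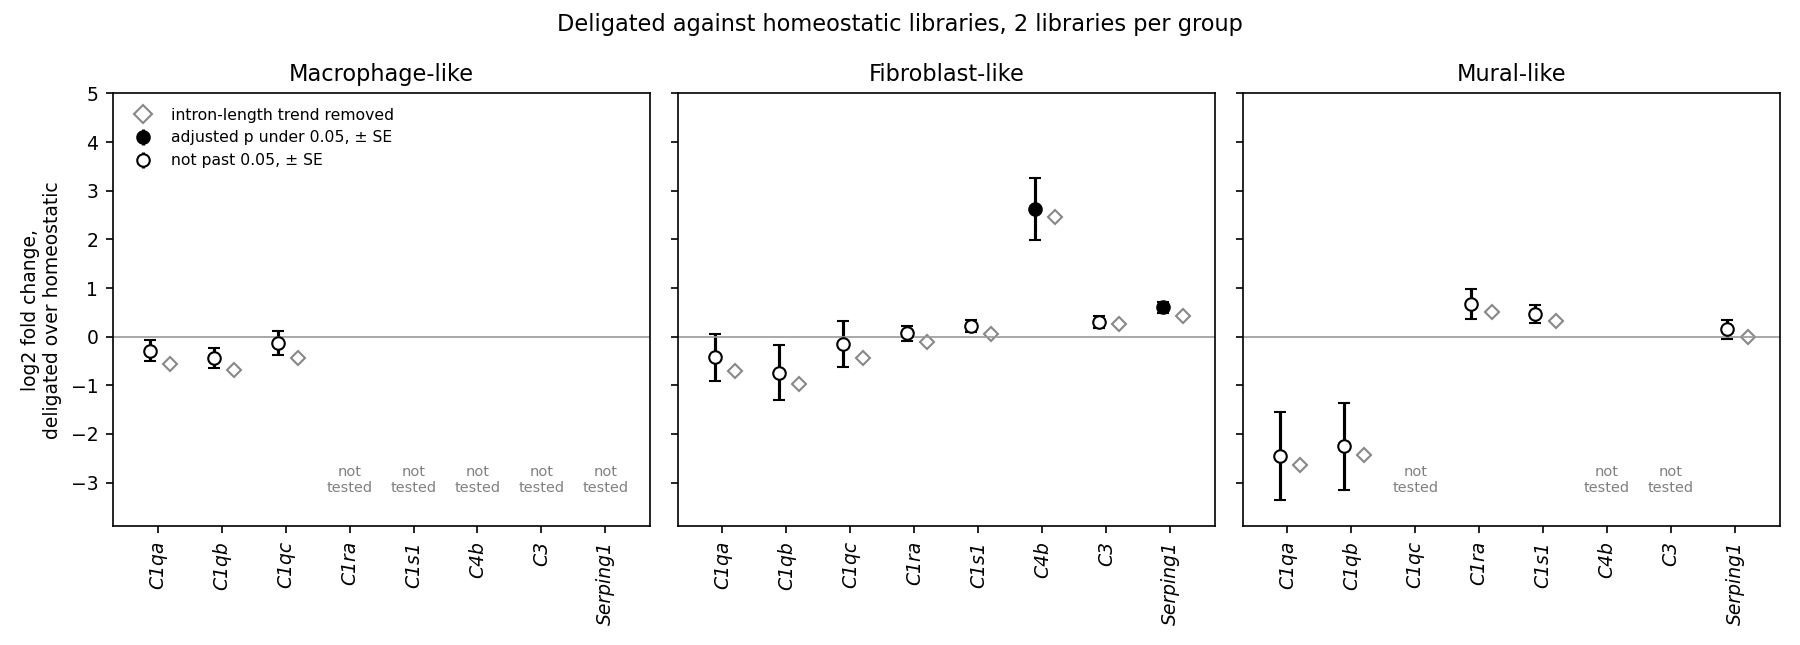
Points give the log2 fold change of each member, deligated over homeostatic, in 3 cell classes with its standard error from edgeR (filled where the adjusted p is under 0.05); grey diamonds give the value after the trend with intron length was removed. C4b (2.62) and Serping1 (0.61) in fibroblast-like cells are the filled points.

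Several members were called at levels of under 10 CPM in endothelial-like and NK/innate lymphoid-like cells. Endothelial-like cells held 4.52% to 9.47% of each library's C1ra UMIs, more than mural-like cells did in both homeostatic libraries (3.84% and 1.23%). In endothelial-like cells 4 of 7 members tested were higher, C1s1, C3, Serping1 and C1ra, where 35% of all genes were called and 12.9% were called higher. C1s1 was 2.25 and 7.29 against 0.955 and 0.421 CPM (log2 fold change 2.79, SE 0.65, adjusted p = 0.0188), and C3 1.43 and 5.00 against 0.682 and 0.702 CPM (2.22, adjusted p = 0.0345). Serping1 was 5.19 and 6.06 against 1.50 and 2.46 CPM (1.52, adjusted p = 0.00802), and C1ra 5.87 and 9.88 against 4.70 and 3.72 CPM (0.92, adjusted p = 0.0395). For each of the 4 genes the groups did not overlap, and the share of all genes that do the same was not measured. The other 3 members tested had values of the opposite sign and were not called, C1qa at -1.58 (adjusted p = 0.0846), C1qb at -1.37 (adjusted p = 0.159) and C1qc at -1.79 (adjusted p = 0.0692), with groups that did not overlap either. They were called lower in 6, 2 and 7 of 15 alternatives, in the same order, fits without a deligated library among them. Such fits called more of all genes in this class as well. The 3 values were -0.85, -0.60 and -1.03 without deligated replicate 1 and -3.49, -3.55 and -3.95 without deligated replicate 2. Without deligated replicate 2 the values were 1.77 for C1s1, 0.56 for C1ra and 1.12 for C3, and the C3 call was lost (adjusted p = 0.0718). C3 also lost its call without homeostatic replicate 1 or 2 (adjusted p = 0.0590 and 0.0556), as did C1ra (0.0528 and 0.158) and, with the trend with intron length taken out, C1ra alone (0.0720). With cells thinned to 1000 UMIs, C1s1, C3 and Serping1 did not pass the filter on low counts, and C1ra was not called (0.51, adjusted p = 0.383). The NK/innate lymphoid-like class had 2 of 5 members higher and 1 lower, where 43.7% of all genes were called, 16.9% higher and 26.8% lower. The higher ones were C3, at 1.93 and 4.66 against 0.296 and 0.281 CPM, and Serping1, at 1.58 and 4.42 against 0 and 0.281 CPM. A count of 0 there allows up to 3 UMIs of 6753235. In T cell-like cells C1qb alone could be tested and was not called (adjusted p = 0.0554), where 26.2% of all genes were.

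Fibroblast markers in those classes moved the same way. The 10 markers summed to 59.7 and 215 CPM in deligated and to 24.2 and 19.7 CPM in homeostatic endothelial-like cells, and to 67.0 and 220 against 13.5 and 14.2 CPM in NK/innate lymphoid-like cells. All 10 were above 0 in the deligated libraries, and 0 to 2 of the 10 were at 0 in the homeostatic ones. Per 100 fibroblast-marker UMIs, C3 had 1.50 to 1.73 UMIs in fibroblast-like, 1.98 to 2.88 in NK/innate lymphoid-like and 2.32 to 3.57 in endothelial-like cells. Serping1 had 1.86 to 2.30 in fibroblast-like and 0 to 2.36 in NK/innate lymphoid-like cells, but 2.81 to 12.5 in endothelial-like cells. C1ra had 0.651 to 0.930 in fibroblast-like cells, and in endothelial-like cells 9.84 and 4.59 (deligated) against 19.4 and 18.9 (homeostatic). C1s1 had 21.8 to 32.2 in mural-like cells, against 1.50 to 1.75 in fibroblasts, and in endothelial-like cells 3.78 and 3.39 (deligated) against 3.94 and 2.14 (homeostatic). The part of free RNA in the called differences was not tested.

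**Figure D4:**
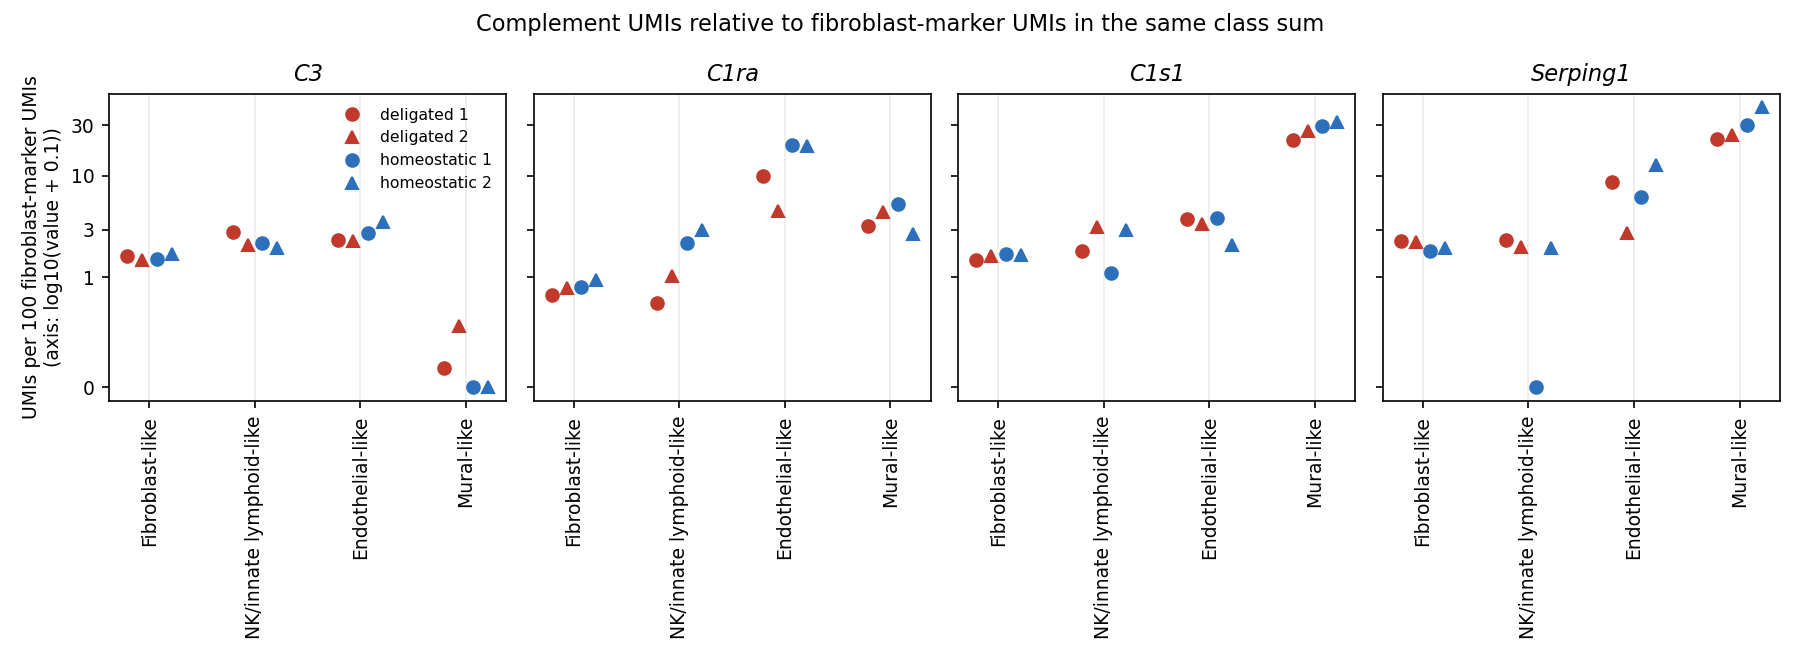
Points give UMIs of a gene per 100 UMIs of the 10 fibroblast markers in the same class sum, per library, on a log10(value + 0.1) axis; colours and shapes mark group and replicate. C3 lies between 1.50 and 3.57 in fibroblast-like, NK/innate lymphoid-like and endothelial-like cells, whereas C1s1 in mural-like cells lies between 21.8 and 32.2.

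Whether a member's change differed between 2 cell classes was tested directly, as an interaction of class and group, for 3 pairs of stromal classes. Between fibroblast-like and endothelial-like cells 1 of 8 members differed, where 5.55% of all genes did: C1s1, whose change was lower in fibroblasts by 2.38 on the log2 scale (SE 0.46, adjusted p = 0.00903). Between endothelial-like and mural-like cells 2 of 8 differed, C1s1 (2.25, SE 0.48, adjusted p = 0.0469) and Serping1 (1.35, SE 0.23, adjusted p = 0.0127), where 0.561% of all genes did. Between fibroblast-like and mural-like cells 1 of 8 differed, C4b (5.08, SE 0.87, adjusted p = 0.0236), where 0.292% of all genes did. Mural C4b was 4.74 and 3.12 against 5.62 and 38.6 CPM, so that value leans on the 17 UMIs of homeostatic replicate 2. Without that library C4b was not called (2.71, adjusted p = 0.560). Without deligated replicate 2, C1s1 was 1.41 between endothelial-like and mural-like cells, no longer called (adjusted p = 0.142), and -1.54 between fibroblast-like and endothelial-like cells. Without either homeostatic library no member differed between endothelial-like and mural-like cells, or between fibroblast-like and endothelial-like cells.

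Fibroblast-like cells with a UMI of Pi16 or Dpp4, markers of adventitial fibroblasts, were compared with the rest within each library. They were 41.5% and 31.9% of the fibroblast-like cells in the deligated and 7.08% and 9.60% in the homeostatic libraries. C4b was higher in the positive cells of all 4 libraries, at 149, 50.1, 50.5 and 5.80 CPM against 18.9, 9.24, 7.74 and 5.29 CPM (deligated 1 and 2, homeostatic 1 and 2). The homeostatic positive cells were few, with 7 C4b UMIs in 17 cells and 1 in 24. C4b was called higher (log2 fold change 2.72, SE 0.19, adjusted p = 1.42e-07). Serping1, at 1416, 1536, 1241 and 1148 CPM against 1129, 1255, 818 and 910 CPM, was also called higher (0.37, SE 0.08, adjusted p = 0.0119). The Serping1 call was kept in 3 of 6 alternatives and was lost without deligated replicate 1 (adjusted p = 0.0794), without deligated replicate 2 (adjusted p = 0.129) and with cells thinned to 1000 UMIs (adjusted p = 0.962).

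These were 2 of 7 members tested, where 1.85% of all genes were called and 1.22% were called higher. C3 (0.28, adjusted p = 0.155), C1s1 (-0.11, adjusted p = 0.764) and C1ra (-0.12, adjusted p = 0.781) were not called. Within the negative cells alone the C4b values of the groups did not overlap (18.9 and 9.24 against 7.74 and 5.29 CPM), and within the positive cells they did. Positive cells were deeper, with medians of 13416, 9706, 8626 and 7009 UMIs against 13013, 8973, 6775 and 6631. With cells thinned to 1000 UMIs, C4b did not pass the filter on low counts and Serping1 was not called (0.34, adjusted p = 0.962).

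**Figure D5:**
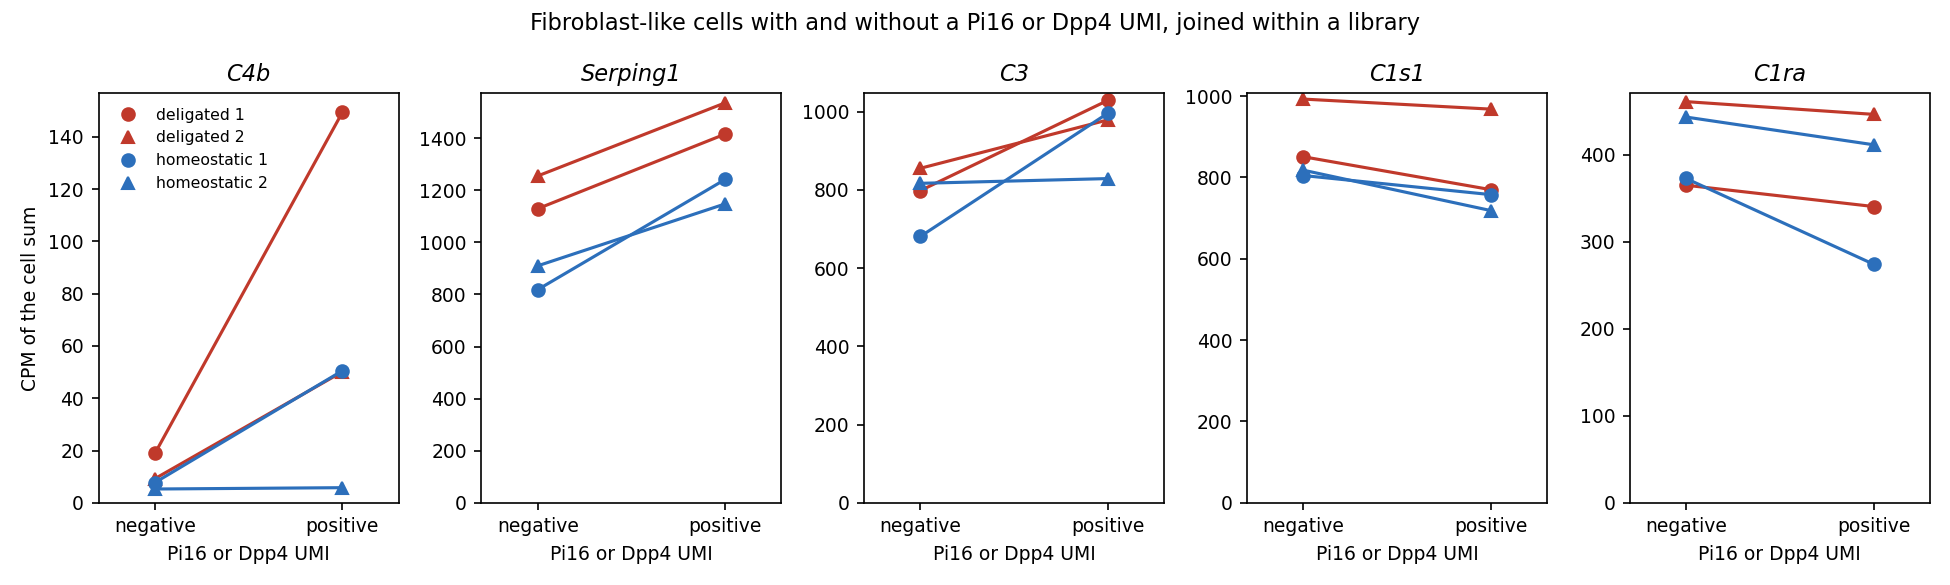
CPM of 5 members in fibroblast-like cells without (negative) and with (positive) a Pi16 or Dpp4 UMI, lines joining the same library, axes starting at 0. C4b climbs from 18.9 to 149 CPM in deligated replicate 1 and barely moves in homeostatic replicate 2 (5.29 and 5.80 CPM), and Serping1 is higher in the positive cells of every library.

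The rest of the pathway was followed through a list of 49 further complement genes, of which 48 were in the files and C4a was not analysed here. In fibroblast-like cells 7 of the 18 genes tested were called higher and 2 lower, where 25.5% of all genes were called and 8.3% were called higher, with a median log2 fold change of 0.43 against 0.01 over all genes. Masp1, a protease of the lectin route, rose by 2.25 on the log2 scale (24.6 ± 7.49 against 5.33 ± 0.831 CPM, SD, n = 2 each, adjusted p = 0.00144). Cfb, the factor B of the alternative convertase, rose by 1.00 (31.3 ± 2.37 against 16.3 ± 5.47 CPM) and Vtn, encoding the terminal inhibitor vitronectin, by 0.82 (73.0 ± 2.39 against 43.3 ± 5.81 CPM). C2, which pairs with C4 in the classical convertase, rose by 0.62 (166 ± 35.4 against 113 ± 10.6 CPM). Hc, encoding C5, rose by 2.62 at 3.64 ± 0.388 against 0.593 ± 0.839 CPM, and Lrp1, a scavenger receptor, by 0.39. The Masp1 call held in all 14 alternatives run for it, whereas Cfb lost its call in 3 of 15, Vtn in 4 of 15, C2 and Lrp1 in 2 of 15 each and Hc in 4 of 12. Leaving out homeostatic replicate 1 lost the calls of Cfb, Vtn, C2 and Lrp1, and leaving out homeostatic replicate 2 those of Vtn, C2 and Lrp1. The Hc value was 1.64 without homeostatic replicate 1 and 7.02 without homeostatic replicate 2, and neither was called. C2 and Cfb overlap the readthrough gene Gm20547, and Hc overlaps Gm13449 on the other strand.

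The 2 that fell in fibroblast-like cells were Csmd1 (-3.10, adjusted p = 6.23e-05), a membrane regulator whose introns sum to 1624 kb, and Cd46 (-2.26, adjusted p = 0.00015), with 47.8 kb of introns. Csmd1 was also called lower in mural-like cells (-3.58) and in endothelial-like cells, where it had 0 UMIs in both deligated libraries and 20 and 18 in the homeostatic ones. With the intron-length trend removed the fibroblast value of Csmd1 was -0.58 and was no longer called (adjusted p = 0.240), while Cd46 stayed called. The mural-like and endothelial-like Csmd1 calls held in all 14 alternatives run for each, the mural-like value at -4.45 to -1.68.

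In macrophage-like cells 3 of the 17 listed genes tested were higher and 1 lower, where 14.9% of all genes were called. Itgam (0.74, adjusted p = 0.0471) and Itgax (0.60, adjusted p = 0.0417), the alpha chains of complement receptors 3 and 4, were higher, as was Clu (2.77, adjusted p = 0.0418), the fluid-phase regulator clusterin. Itgam, which neutrophils also express, was at 54.3 and 81.2 against 41.5 and 37.5 CPM. The neutrophil markers given above were high in deligated replicate 1, and their part in the Itgam values was not tested. The C3a receptor C3ar1 had its highest class mean there, 184 ± 59.4 CPM (SD, n = 4). Of the alternatives, 9 of 15 lost the Itgam call, 10 of 15 the Itgax call and 7 of 14 the Clu call. All 3 calls were lost without either homeostatic library. The Clu value was 0.74, not called, without deligated replicate 1 and 3.78 without deligated replicate 2. Without deligated replicate 2 the Itgam value was 0.36 and the Itgax value 0.34, and neither was called.

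In mural-like cells 2 of 13 listed genes were higher and 1 lower, where 6.49% of all genes were called. Colec11, a soluble lectin that activates the lectin route, was higher (1.41, SE 0.32, adjusted p = 0.0187). The call was lost in 3 of 14 alternatives, among them without homeostatic replicate 2 (1.01), and the value was 2.13 without homeostatic replicate 1, where it was still called. Colec11 was at 85.1 ± 16.2 against 30.6 ± 17.6 CPM and its mean in the next class was 0.526 CPM. In endothelial-like cells 4 of 20 were higher and 3 lower, so the share called equals the 35% of all genes called there. Cfb (2.11), C5ar2 (1.90), Lrp1 (1.87) and Cd93 (0.56) were higher, and Csmd1, Cd46 (-2.58) and Cd59b (-1.66) were lower. The Cd46 call held in 15 of 15 alternatives, whereas C5ar2 lost its call in 5 of 14, Cfb and Cd59b in 3 of 14 each, Cd93 in 3 of 15 and Lrp1 in 2 of 14. Without homeostatic replicate 1 all 5 of these calls were lost, and without homeostatic replicate 2 all but that of Lrp1. The Lrp1 value was 1.01 without deligated replicate 2, where it was still called. Lrp1 and Cfb had higher means in fibroblast-like cells (1273 and 23.8 CPM), and the fibroblast markers that moved in the endothelial-like sums are given above; their part in these calls was not tested. Cd93, a receptor first described as binding C1q, was at 630 ± 4.93 against 434 ± 22.7 CPM.

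Other listed genes at 100 CPM or more in a class mean were Vtn in mural-like cells (243 CPM), Cr1l (142 CPM) and Clu (142 CPM) in endothelial-like cells, C1qbp in epithelial-like cells (244 CPM) and Calr in fibroblast-like cells (627 CPM). Itgax (264 CPM) and Itgb2 (149 CPM) had their highest means in NK/innate lymphoid-like cells. Itgam, Itgax and Itgb2 were each called higher in that class. Of the 10 listed genes tested there, 4 were higher and 1 lower, where 43.7% of all genes were called. Mbl1, Mbl2, Fcnb, Colec10, Cfd, C6, C8b, Cd55b and Cpn2 were listed at 0 in every class with at least 20 cells in each library.

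Likeness to other genes was measured as Pearson's r of log2(CPM + 1) over 32 sums, 8 classes in 4 libraries, which share libraries and depth and are given as a description. C1qa was most like Cd74 (0.977), H2-Eb1 (0.973) and H2-Aa (0.968), genes of antigen presentation. C3 was most like the matrix genes Fbln1 (0.972) and Dcn (0.961), and Dpep1 (0.957). Serping1 was most like Cd248 (0.982), Ndn (0.980) and Naalad2 (0.977). C4b was most like Lgi2 (0.900), Mfap5 (0.884) and Adamts15 (0.882), over classes that leave out Schwann-like cells.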

How the data were processed

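The deposited matrices hold UMI counts per gene and cell barcode, whole numbers with no normalization. Per the file headers they were made with Cell Ranger 6.0.1 (deligated) or 7.0.0 (homeostatic), and the submitters' processing notes name Cell Ranger 6.0.1, Seurat and the build mm10. The members and gene lists were chosen with earlier results of these data known.

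Cells with at least 300 genes and at most 10% mitochondrial UMIs were kept (82.2% to 92.2% of barcodes after doublets). The highest simulated-neighbour doublet scores were removed at 0.8% per 1000 cells, 164 to 1165 cells per library. Cells were clustered with scanpy 1.11.5 (3000 variable genes without complement genes, 30 principal components, 20 neighbours, Leiden resolution 1.0). A cluster needed at least 3 markers of a class, each at 2-fold in 10% of its cells, and 22 of 31 clusters were named. Some clusters with enough markers stayed unnamed. Their top genes pointed to a different class, or no marker was among those genes and UMIs were low or a rival class came close. Cluster 2, with top genes Cd8b1, Cd8a and Cd3e, was among them, with 448 and 731 deligated and 7 and 4 homeostatic cells. It is therefore not part of the T cell-like class. These naming rules were set with the clusters in view, and rebuilt names may differ from the study's. Unnamed clusters entered no test.

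UMIs were summed per library and class. Classes with at least 20 cells in every library were tested with edgeR 4.0.16 (R 4.3.3; TMM factors, filterByExpr, quasi-likelihood test, Benjamini-Hochberg adjustment over all genes tested, threshold 0.05), with library as a block for comparisons between classes or within fibroblasts. CPM are UMIs per 1000000 UMIs of the class sum. Groups are said not to overlap when both libraries of one group lie above both of the other. How many of all genes do so was not measured. The range of total UMIs per library is given in the report. Intron lengths came from GENCODE M21, to which 99.86% of the gene IDs matched, and the trend was removed with a lowess curve of span 0.5. The text names all members and, of 49 further complement genes, up to 4 per direction and class with the largest change past the threshold, plus those at 100 CPM or more in a class. Counts cover the whole list, and some of the genes counted are not reported here by name.

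Alternatives were DESeq2 1.42.0, its size factors (RLE) in edgeR, no filter on low counts, a replicate block, the intron trend removed, each library left out, cells thinned to 1000 UMIs, a stricter cell filter (1000 UMIs, 500 genes, 5% mitochondrial), doublets kept, complement genes kept in the clustering and Leiden resolution 2.0. After the data were seen, C4b without the 5 richest cells and totals without erythroid-marker UMIs were added. The fitting steps were tested on simulated data. At a simulated log2 change of 1, from 0% (epithelial-like) to 80.2% (NK/innate lymphoid-like) of changed genes were recovered, and 36.1% in macrophage-like cells. At a change of 2 the shares were 0% in epithelial-like and 74.5% in macrophage-like cells. False calls numbered 0 (epithelial-like) to 29 (T cell-like) per class.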

Additional observations from a re-analysis of the deposited data

Results flagged for a closer look

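Each of these results is a change between deligated and homeostatic libraries that differed between 2 cell classes by the interaction test. For C1s1 the log2 change in endothelial-like cells exceeded that in mural-like cells by 2.25, and the fibroblast-like change minus the endothelial-like one was -2.38. For Serping1 the endothelial-like change exceeded the mural-like one by 1.35. For C4b the fibroblast-like change exceeded the mural-like one by 5.08. Beyond the interaction test itself, chance was not weighed for any of them. The UMIs behind the endothelial values were 6 to 124 for C1s1 and 22 to 103 for Serping1 per library. With 1 library left out, the smallest values were 2.71 for C4b, 1.23 for Serping1, and 1.41 (against mural-like) and -1.54 (fibroblast-like against endothelial-like) for C1s1.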

How the results depend on the processing

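The class with the highest mean level was the same for 8 of 8 members with the stricter filter, with complement genes kept in the clustering and at resolution 2.0, and 3 erythroid-like C1q genes were called in all alternatives run. The replicate numbers share only a number: deviations of same-numbered libraries correlated at -0.168 to -0.0036. With the replicate block, the members called were 1 in epithelial-like cells (1 also with the trend removed) and 2 in mural-like cells (1 with the trend removed), against 0 in each without it. With no filter on low counts, counts were 7 in endothelial-like, 3 in macrophage-like and 4 in mural-like cells, and 4 for fibroblasts against endothelium. With cells thinned, fewer members passed the filter: 0 of 4 tested were called in endothelial-like, 1 of 4 in fibroblast-like and 1 of 1 in NK/innate lymphoid-like cells, 0 of 4 for the Pi16 or Dpp4 split, 0 of 5 for endothelium against mural cells and 0 of 4 for fibroblasts against mural cells. With doublet-scored cells kept, they were 4 in epithelial-like, 4 in fibroblast-like, 1 in macrophage-like, 3 in mural-like and 6 in NK/innate lymphoid-like cells. DESeq2 called 1 in epithelial-like cells, and keeping complement genes in the clustering gave 2 in macrophage-like cells. With that setting and with no filter, C1qa and C1qc were not called in macrophage-like cells. Calls there beyond C1qb were of C1ra, C1s1, C4b, C3 or Serping1, which the main fit did not test in that class. These had 3 to 14 UMIs each in the main macrophage-like sums of all libraries. In T cell-like cells RLE factors, the trend removed, the stricter filter, complement genes kept and resolution 2.0 each gave 1. Resolution 2.0 gave 1 for endothelium against mural cells. Leaving out 1 library gave ranges of 2 to 8 in endothelial-like, 0 to 3 in epithelial-like, 3 to 3 in erythroid-like, 0 to 4 in fibroblast-like, 0 to 3 in macrophage-like, 0 to 1 in mural-like, 2 to 7 in NK/innate lymphoid-like and 0 to 0 in T cell-like cells. It gave 1 to 2 for the split, 0 to 3 for endothelium against mural cells, 0 to 4 for fibroblasts against endothelium and 0 to 1 for fibroblasts against mural cells. In these fits the lone library of a group is assumed to vary like the other group. Leaving out a deligated library raised the calls over all genes in endothelial-like, fibroblast-like, macrophage-like and NK/innate lymphoid-like cells.

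The sign of a log2 value turned only for members that were not called, and the causes of these and the shifts above were not tested, beyond the fewer members tested in thinned cells and fewer samples with a library left out. Between endothelial-like and mural-like cells, thinning gave -1.14 for C1ra, -0.60 for C1qb and -7.55 for C1qa, and leaving out 1 library gave -0.32 to 0.45 for C1ra. In fibroblast-like cells C1ra was -0.12 with the trend removed (-0.12 with the replicate block too) and -0.074 to 0.22 with 1 library left out, which gave -1.15 to 0.068 for C1qa and -0.41 to 0.15 for C1qc. C3 there was -0.091 with doublets kept. In macrophage-like cells doublets kept gave 0.18 for C1qa, 0.026 for C1qb and 0.30 for C1qc, resolution 2.0 gave 0.065 for C1qa and 0.18 for C1qc, and 1 library left out gave -0.65 to 0.18 for C1qc. Mural Serping1 was -0.0077 with the trend removed and -0.058 to 0.39 with 1 library left out. With 1 library left out, C4b between fibroblasts and endothelium was -0.68 to 2.17, C1ra between fibroblasts and mural cells -1.53 to 0.027, and C1qb in the split -0.44 to 0.49. Thinned C1s1 between fibroblasts and mural cells was 0.035.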

Other observations

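Among the unnamed clusters, cluster 15, led by genes of dividing cells such as Top2a and Mki67, held C1qa at 64.8 and 710 CPM in the deligated libraries (31 and 17 cells) and at 1538 and 733 CPM in the homeostatic ones (56 and 63 cells). The groups did not overlap, the share of all genes that do the same was not measured, and no test was made on so few cells.

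Within endothelial-like cells, cluster 8, led by genes that include Gja5, Bmx and Sema3g (genes of arteries), had Serping1 at 14.6 and 14.5 CPM in the deligated and 3.45 and 6.45 CPM in the homeostatic libraries, from 6 to 26 UMIs per library. These groups did not overlap either, and clusters were not tested.

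Among Pi16 or Dpp4 positive fibroblast-like cells, 3 of the 14 further complement genes tested were called higher than in negative cells, where 1.22% of all genes were. The homeostatic positive cells numbered 17 and 24, and no alternatives are given for these 3 genes. Clu had a log2 fold change of 2.16 (edgeR adjusted p = 0.00409), Csmd1 of 1.69 (adjusted p = 0.0411) and Cd55, which speeds the decay of convertases, of 0.86 (adjusted p = 0.018).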
